A study of Arabidopsis thaliana with 4 samples.

Results

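COR15A (AT2G42540), COR15B (AT2G42530), COR47 (AT1G20440) and LTI30 (AT3G50970) are 4 Arabidopsis thaliana genes known for transcripts that accumulate in the cold and in drying tissue. They were taken by symbol from the platform annotation of the Affymetrix ATH1 array, which gave each of them 1 single-gene probe set, out of 13513 single-gene probe sets. All 4 were bright enough to be tested, as were 13648 of the 22746 probe sets other than controls. These genes were chosen with earlier results of the same arrays known, among them a difference between the replicate numbers, so that difference is described here without a test.

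Full-grown source leaves, which export sugar, were cut from non-flowering wild-type plants of ecotype Col-0 as the light period ended, the plants having been kept at 20 °C in a 14 h day and 16 °C in a 10 h night. In the dark, all leaves then took up 2 mM MES buffer through their petioles for 13 h, and the buffer held 100 mM sorbitol as the control or 100 mM sucrose. Each treatment had 2 arrays, numbered 1 and 2 in their titles, and each array gave 1 intensity per probe set. The labels name no separate plants or harvests behind these numbers, so p-values measure the spread between arrays, which may be technical. Leaves frozen before the incubation were not analysed here.

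Cold-regulated (COR) genes are induced by low temperature, by loss of water and by the hormone abscisic acid. In the cold, transcription factors of the CBF (DREB1) family bind a short element in the promoters of many of them, while abscisic acid acts through a further element and its own set of transcription factors. COR15A and COR15B encode chloroplast proteins that protect membranes when freezing draws water from the cell. COR47 and LTI30 encode dehydrins, hydrophilic proteins of the late embryogenesis abundant (LEA) class that bind membranes and other cell components as water is lost. In the TAIR10.1 gene table COR15A and COR15B stood next to each other, as did COR47 and the dehydrin gene ERD10, and LTI30 and the dehydrin gene XERO1. ERD10 and XERO1 were not analysed here.

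The arrays carried the transcripts of photosynthetic tissue, with intensities of 835.5 to 3834 for the rubisco activase gene RCA, 482.1 to 3237 for the Calvin cycle gene PRK and 2184 to 5469 for the antenna gene LHCB4.1. Of 15 markers of other leaf cell types, xylem and root, 2 had a single-gene probe set. The guard cell gene FMA lay between 37.0 and 55.6, and the stomatal lineage gene SPCH between 1.6 and 2.5, under the dim end of the scale at 9.3, which no value of the 27 control probe sets for Bacillus genes exceeded. In whole leaves, fewer cells of a type and less RNA per cell cannot be told apart. The arrays also differed in ways that followed the replicate number. For 25S ribosomal RNA the control probe set read 2163 (sorbitol) and 1255 (sucrose) on the replicate 1 arrays, whereas it read 14.4 and 56.6 on the replicate 2 arrays. The median log2 intensity of 69 plastid-encoded probe sets was 10.42 on sorbitol 1 and 9.74 on sucrose 1, against 8.58 on sorbitol 2 and 8.96 on sucrose 2. The sucrose 2 array stood apart in the controls that compare the ends of a transcript. Its 3 prime minus 5 prime log2 difference was 0.20 for GAPDH and 0.50 for ubiquitin, whereas the other arrays had 1.43 to 1.85 and 1.24 to 1.79.

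Transcripts of all 4 genes were measured well above the dim end of the scale on every array, the lowest value being the intensity of 51.5 for COR15B on sucrose 1. Each gene had its highest intensity on sucrose 2 and its second highest on sorbitol 2. That order of the replicate 2 arrays was shared by 7.11% of the probe sets tested. The lower arrays differed in order: sorbitol 1 was the lowest for COR15A and LTI30, and sucrose 1 for COR15B and COR47. Intensities of different genes come from different probes and are not set against each other.

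COR15A, one of the chloroplast pair, had intensities of 650.2 on sorbitol 1, 1017 on sucrose 1, 2842 on sorbitol 2 and 3345 on sucrose 2. The replicate 2 arrays were high and the replicate 1 arrays low in both treatments, and the values for sorbitol and sucrose overlapped. Its neighbour COR15B had 155.6 on sorbitol 1, 51.5 on sucrose 1, 165.2 on sorbitol 2 and 288.4 on sucrose 2. Both sorbitol values lay close together, and the sucrose values lay on either side of them. Although COR15A and COR15B are close copies, their probe sets followed different courses over the arrays, and cross-hybridisation between them was not tested.

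The dehydrin gene COR47 had intensities of 561.0 on sorbitol 1, 292.8 on sucrose 1, 1393 on sorbitol 2 and 2133 on sucrose 2. Its sorbitol values lay between its sucrose values, the arrangement also seen for COR15B. LTI30 had 170.1 on sorbitol 1, 202.1 on sucrose 1, 818.2 on sorbitol 2 and 2235 on sucrose 2. Both replicate 1 arrays were low for LTI30, sorbitol 2 was intermediate and sucrose 2 was the highest by a wide margin.

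**Figure D1:**
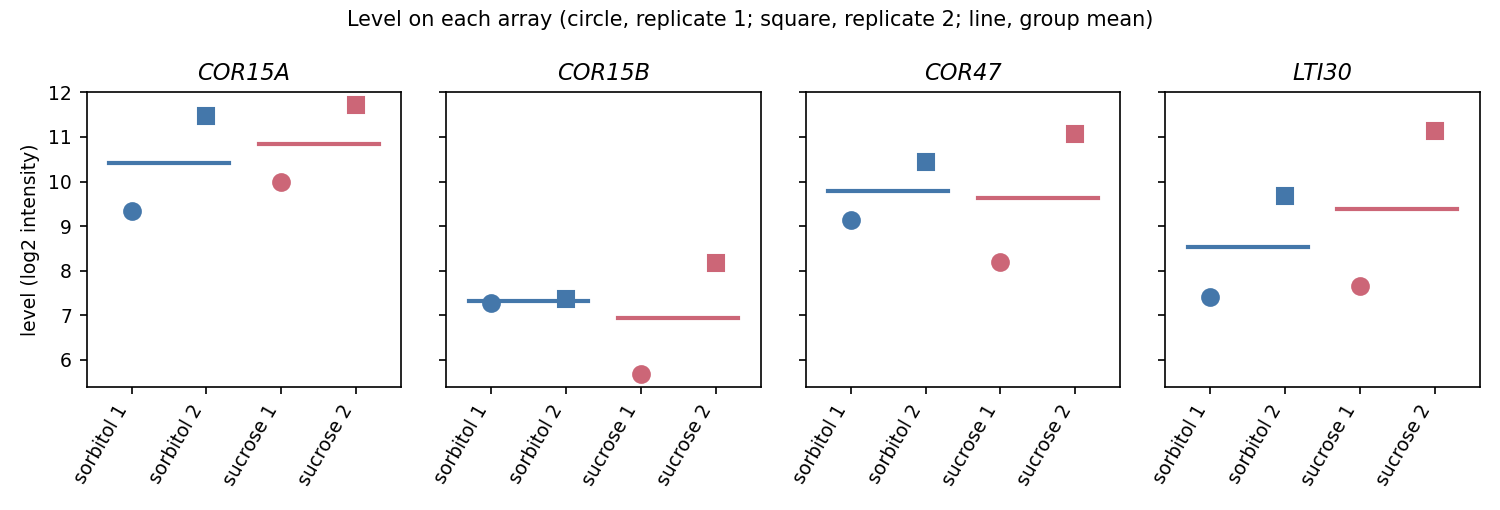
Level of each gene on each array as log2 intensity, with 1 panel per gene, sorbitol in blue, sucrose in red, circles for replicate 1, squares for replicate 2 and lines for the group means (n = 2). The squares lie above the circles of the same treatment throughout, from a log2 level of 5.69 for COR15B on sucrose 1 to 11.71 for COR15A on sucrose 2, although for COR15B in sorbitol the gap is 0.09.

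The comparison of sucrose with sorbitol asks how transcript levels differ when leaves are supplied with sucrose in place of an equal concentration of a control sugar alcohol. None of the 4 genes passed the limma test over all probe sets at an adjusted p under 0.05, and 0 had an unadjusted p under 0.05. Over all probe sets tested, 0.366% were called higher in sucrose and 0.923% lower by adjusted p. The share by unadjusted p is not given here. The sucrose values of all 4 genes overlapped with the sorbitol values, whereas for 52.3% of the probe sets the 2 treatments did not overlap. For each of the 4 genes both replicate 2 arrays lay above both replicate 1 arrays, an order that makes the treatments overlap. The overlap is therefore no separate result on sucrose. The median log2 change of the 4 genes was 0.14, beside 0.02 over all probe sets tested.

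In the chloroplast pair, COR15A had a log2 level of 10.41 ± 1.50 (SD, n = 2) in sorbitol and 10.85 ± 1.21 in sucrose, a ratio of 1.36. Its log2 change was 0.44 ± 0.82 SE, with a 95% interval from -1.53 to 2.41 (limma adjusted p = 0.807). COR15B had 7.32 ± 0.06 in sorbitol and 6.93 ± 1.76 in sucrose. Its change of -0.40 ± 0.76 SE had an interval from -2.22 to 1.43 (limma adjusted p = 0.813). Both intervals included 0 and also changes of more than 2-fold, so neither a response nor its absence was shown at 2 arrays per treatment.

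Among the dehydrins, COR47 had a log2 level of 9.79 ± 0.93 in sorbitol and 9.63 ± 2.03 in sucrose, with a change of -0.16 ± 0.93 SE and an interval from -2.41 to 2.08 (limma adjusted p = 0.944). LTI30 had 8.54 ± 1.60 in sorbitol and 9.39 ± 2.45 in sucrose, a ratio of 1.80. That change of 0.85 ± 1.20 SE was the widest of the 4 in its error, with an interval from -2.05 to 3.75 (limma adjusted p = 0.743). For every gene the SD within at least 1 treatment exceeded the size of the change.

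Taken by replicate number, the direction differed among the genes. COR15A had a log2 change with sucrose of 0.65 on the replicate 1 arrays and 0.23 on the replicate 2 arrays, and LTI30 had 0.25 and 1.45, so both were higher in sucrose each time. COR15B had -1.60 and 0.80, and COR47 had -0.94 and 0.61, so both were lower in sucrose on the replicate 1 arrays and higher on the replicate 2 arrays. Opposite signs were found for 29.2% of the probe sets tested. Where both changes exceeded 0.5 in size, opposite signs were found for COR15B and COR47 and for 282 of the 13648 probe sets tested. With 4 arrays, the difference between these paired changes has no test. The sign of each mean change also turned when 1 array was left out: COR15A was at -0.62 without sorbitol 1 and -0.42 without sucrose 2, and LTI30 at -0.28 and -0.88 without the same arrays. COR15B was at 0.85 without sucrose 1, and COR47 at 1.27 without sucrose 1 and 0.49 without sorbitol 2.

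**Figure D2:**
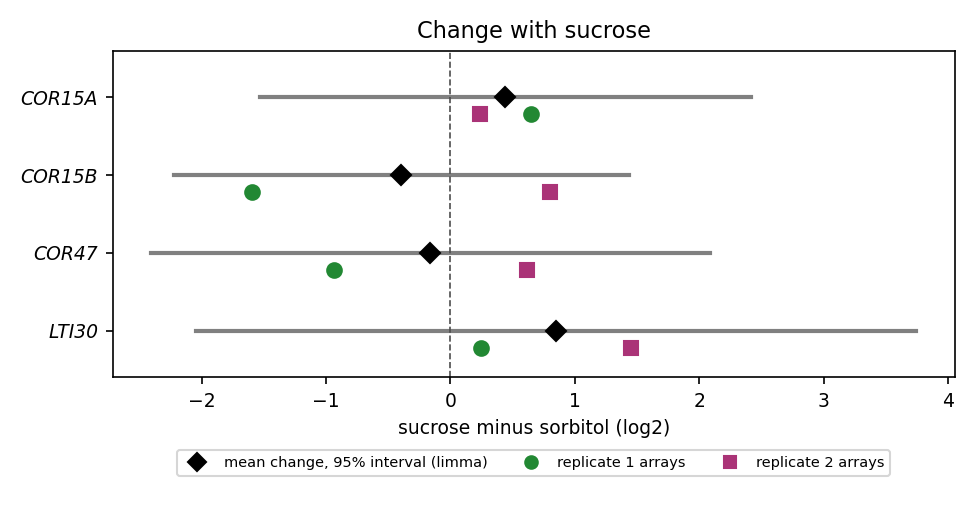
Log2 change of each gene, sucrose minus sorbitol, as the mean with its 95% interval from limma (black and grey), and separately for the replicate 1 arrays (green circles) and the replicate 2 arrays (purple squares). All 4 intervals cross 0, and for COR15B and COR47 the circle and the square lie on opposite sides of 0.

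Set by replicate number, all 4 genes were higher on both replicate 2 arrays than on both replicate 1 arrays, an arrangement found for 11.8% of the probe sets tested. The opposite arrangement, both replicate 2 arrays below both replicate 1 arrays, was found for 20.1%. LTI30 differed most, being 4.81-fold higher on replicate 2 in sorbitol and 11.1-fold higher in sucrose. COR47 was 2.48-fold higher in sorbitol and 7.29-fold higher in sucrose. COR15A was 4.37-fold and 3.29-fold higher, in that order, and was the only one of the 4 with the larger difference in sorbitol. COR15B was 1.06-fold higher in sorbitol and 5.60-fold higher in sucrose, so its difference rested on the sucrose arrays.

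COR15A, COR47 and LTI30, which is 3 of 4 genes, were at least 2-fold higher on replicate 2 in both treatments. The same was found for 1.74% of the probe sets tested (238), while 215 were at least 2-fold lower in both treatments. In sorbitol alone the same 3 genes were at least 2-fold higher, beside 3.34% of the probe sets. In sucrose alone all 4 genes were at least 2-fold higher, beside 7.48%. The count in sucrose includes the sucrose 2 array, whose transcript-end controls stood apart. The sorbitol arrays differed in their controls too, with 25S ribosomal RNA at 2163 on sorbitol 1 and 14.4 on sorbitol 2. The part of such differences in either count was not tested. The mean log2 difference over both treatments was 1.92 for COR15A, 1.29 for COR15B, 2.09 for COR47 and 2.87 for LTI30. Larger mean differences were found for 0.931%, 2.38%, 0.755% and 0.308% of the probe sets tested, in the same order of genes. The median of the 4 genes was 2.01, while the median over all probe sets tested was -0.11.

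These values describe a known difference and were not tested. The 25S ribosomal RNA control and the plastid-encoded probe sets given above were lower on the replicate 2 arrays. The ubiquitin 3 prime minus 5 prime log2 difference was lower there too, at 1.24 on sorbitol 2 and 0.50 on sucrose 2, beside 1.79 on sorbitol 1 and 1.68 on sucrose 1. The GAPDH difference did not separate in this way. It was 1.44 on sorbitol 2 and 0.20 on sucrose 2, beside 1.85 on sorbitol 1 and 1.43 on sucrose 1. The part of these differences in the result was not tested. The labels do not say what the replicate number marks, so plants, harvest, RNA preparation and array processing cannot be told apart.

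**Figure D3:**
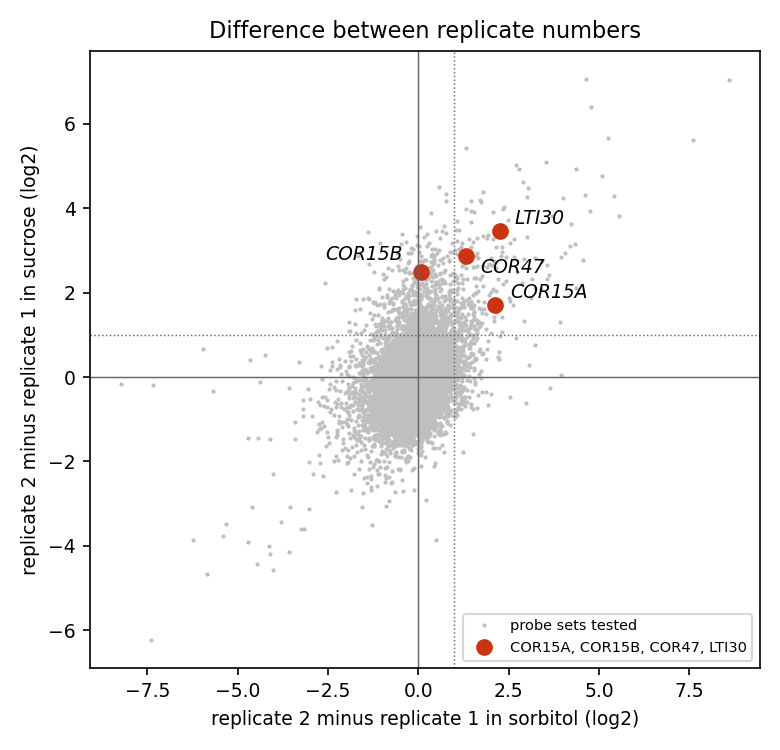
Log2 difference between the replicate 2 and replicate 1 arrays in sorbitol (horizontal axis) and in sucrose (vertical axis) for the 13648 probe sets tested (grey) and the 4 genes (red), with dotted lines at a 2-fold difference. COR15A, COR47 and LTI30 lie beyond both dotted lines, and COR15B lies near 0 on the horizontal axis at 0.09 and at 2.49 on the vertical axis.

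The profiles of the 4 genes over the arrays were compared by the root mean square difference of log2 intensities after each gene was centred on its own mean. COR15B and COR47 were the most alike, at 0.47, and COR15B and LTI30 the least alike, at 1.05. The neighbouring genes COR15A and COR15B differed by 0.88, more than COR15A differed from COR47 (0.58) or from LTI30 (0.65). The dehydrins COR47 and LTI30 differed by 0.64.

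Other genes of cold, dehydration and abscisic acid responses were taken from 7 lists with 109 entries, of which 14 had a single-gene probe set and 10 were bright enough to be tested. Most of the well-known genes, the CBF genes and RD29A among them, had none and were not analysed here. Of the 10 tested, 0 passed higher and 0 lower in sucrose, beside 0.366% and 0.923% of all probe sets tested. An unadjusted p under 0.05 in limma was found for 2 of them. The share of all probe sets under that value is not given here, so this count has no background. With the replicate number as a block, 2 passed higher (DI21 and STZ) and 1 lower (AT1G54410), although the labels do not say that the number pairs the arrays. The same block called 1130 higher and 1206 lower among the 13648 probe sets tested. The median log2 change of the 10 genes with sucrose was 0.58, beside 0.02 over all probe sets. On both replicate 2 arrays 5 of the 10 lay above both replicate 1 arrays, beside 11.8% of all probe sets tested, and 3 were at least 2-fold higher in both treatments, beside 1.74%. The brightness filter used the mean over all arrays, so these counts describe the genes that passed and not the lists.

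Of 7 further dehydrins 3 were measured. AT1G54410, a small dehydrin, had intensities of 5020 on sorbitol 1, 2557 on sucrose 1, 4666 on sorbitol 2 and 2533 on sucrose 2. Both sucrose arrays lay below both sorbitol arrays and the log2 difference between replicate numbers was -0.11 in sorbitol and -0.01 in sucrose. Its log2 change of -0.93 ± 0.27 SE did not pass over all probe sets (limma adjusted p = 0.139). AT4G38410, a dehydrin too, had 14.3 and 43.9 in sorbitol and 11.3 and 28.7 in sucrose, replicate 1 first, and so was higher on both replicate 2 arrays. The dehydrin gene LEA (AT2G21490) lay between 1.6 and 9.8 and was too dim to be tested.

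Of 11 other LEA genes 4 were measured. LEA4-5 had intensities of 14.4 on sorbitol 1, 16.1 on sucrose 1, 116.2 on sorbitol 2 and 307.6 on sucrose 2, the same order of replicate numbers as LTI30. Its log2 difference between replicate numbers was 3.01 in sorbitol and 4.26 in sucrose, larger in each treatment than that of any of the 4 genes. DI21 (AT4G15910), a drought-induced LEA gene, had 21.0 on sorbitol 1, 67.7 on sucrose 1, 14.0 on sorbitol 2 and 137.2 on sucrose 2. It was higher on both sucrose arrays, with a log2 change of 2.49 ± 0.46 SE that missed the threshold (limma adjusted p = 0.0614). AT2G44060 had a change of 0.24, and LEA18 was too dim to be tested, at 0.4 to 14.2.

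Of 21 further cold-regulated genes 5 were measured. TIL, the temperature-induced lipocalin, had 561.2 on sorbitol 1, 549.4 on sucrose 1, 1281 on sorbitol 2 and 1864 on sucrose 2, so its replicate 2 arrays were the higher ones in both treatments. AT4G30650 and AT4G30660, small hydrophobic proteins related to RCI2A, had log2 changes with sucrose of 0.59 and 0.58, and their replicate 2 arrays were not both above the replicate 1 arrays. COR27 and COR28 (AT4G33980), which link cold to the circadian clock, fell under the brightness filter on mean log2 value and were not tested. On every array except sucrose 1, COR27 lay above the filter intensity of 18.6. COR27 had 50.8 and 70.8 in sorbitol and 0.5 and 30.0 in sucrose, and COR28 had 0.4 and 7.9 in sorbitol and 0.9 and 31.1 in sucrose, replicate 1 first. Values below 9.3 have no reliable order.

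Among 13 regulators of the CBF pathway, the zinc-finger repressor gene STZ (ZAT10) was measured, with 60.0 on sorbitol 1, 89.7 on sucrose 1, 81.8 on sorbitol 2 and 626.9 on sucrose 2. The sucrose 2 array stood far above the other three arrays. Its log2 change with sucrose was 1.76 ± 0.85 SE (limma adjusted p = 0.306), with 0.58 on the replicate 1 arrays and 2.94 on the replicate 2 arrays. From 15 dehydration-response genes, the aldehyde dehydrogenase gene ALDH7B4 was measured, with 792.4 and 1659 in sorbitol and 1277 and 2389 in sucrose, replicate 1 first. It was higher on the replicate 2 arrays in both treatments, and its change with sucrose was 0.61 ± 0.48 SE (limma adjusted p = 0.531). The lists of 9 genes for compatible solutes and of 33 genes for abscisic acid synthesis and signalling had 0 measured members.

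**Figure D4:**
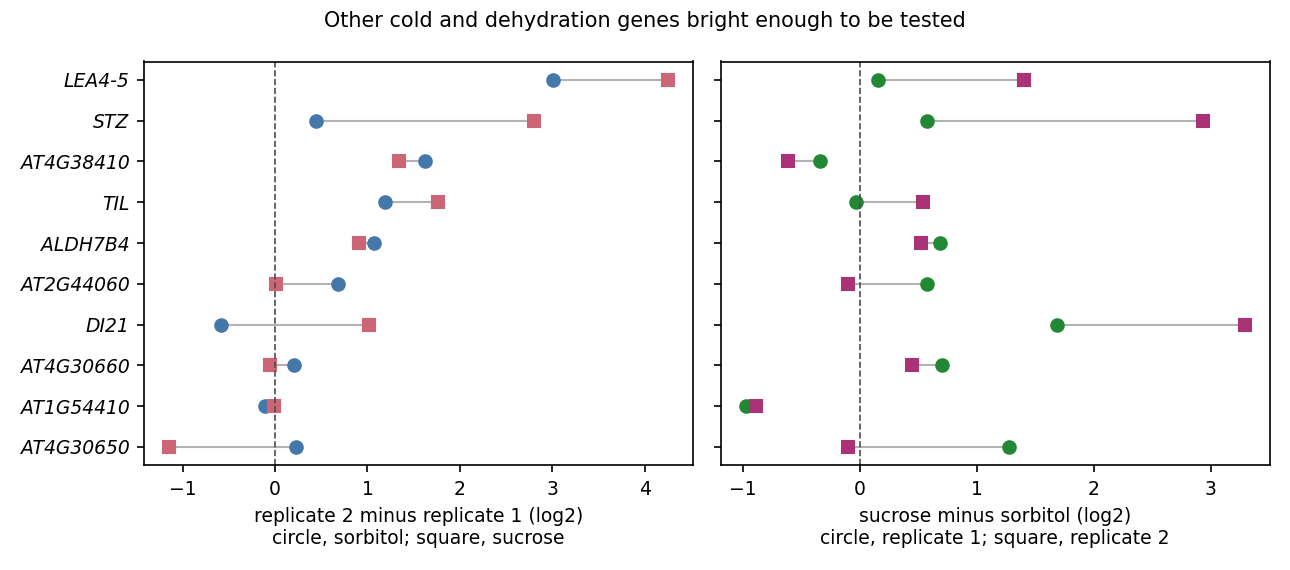
Log2 differences of the 10 other cold and dehydration genes tested, between replicate numbers on the left (circles, sorbitol; squares, sucrose) and between sucrose and sorbitol on the right (circles, replicate 1; squares, replicate 2). LEA4-5 lies farthest to the right between replicate numbers, at 3.01 and 4.26, while AT1G54410 lies near 0 there and below 0 in both sucrose comparisons.

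For each of the 4 genes, the 5 tested single-gene probe sets with the smallest root mean square difference in centred log2 profile over the 4 arrays were taken. ATG8H, an autophagy gene, was nearest to COR47 at 0.14, with 100.9 on sorbitol 1, 67.1 on sucrose 1, 310.8 on sorbitol 2 and 412.5 on sucrose 2. This order of the arrays was that of COR47. The others near COR47 were AT1G15010, AT5G24080, AT5G39090 and AT1G13990, at 0.27 to 0.30. AT5G39090 was also among the nearest to COR15B, at 0.24, after AT3G23550, AT4G35110, AT1G23200 and AT1G58410 at 0.16 to 0.21. AT1G58410 read 8.4 on sucrose 1, below the dim end at 9.3.

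Nearest to COR15A was SWEET1, a sugar transporter gene, at 0.22, with 90.1 on sorbitol 1, 101.3 on sucrose 1, 302.7 on sorbitol 2 and 311.7 on sucrose 2. It showed the low replicate 1 and high replicate 2 arrays of COR15A and nearly equal values in sorbitol and sucrose. AT1G69480, AT1G54020, AT3G62260 and AT2G41190 followed at 0.22 to 0.27. LTI30 had AT5G05220, AT5G01300, AT3G57010, AT2G34810 and AT1G68500 nearest, at 0.22 to 0.33. AT5G05220 read 5.8 on sorbitol 1 and 8.8 on sucrose 1, below the dim end at 9.3, so its likeness rests partly on unreliable values. A likeness over 4 arrays rests on few points that share treatment and replicate number, and is given as a description.

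**Figure D5:**
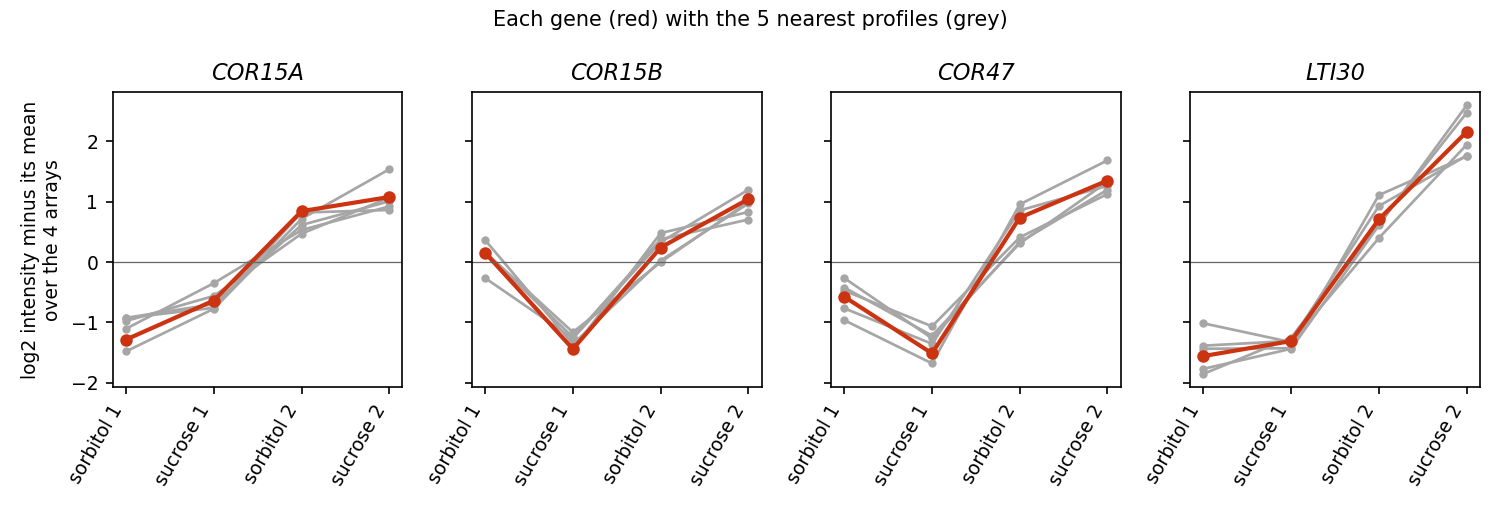
Log2 intensity of each gene (red) and of its 5 nearest single-gene probe sets (grey) after subtraction of each one's mean over the 4 arrays, which are ordered by replicate number. The profiles of COR15B and COR47 dip at sucrose 1, whereas those of COR15A and LTI30 climb from sorbitol 1 through sucrose 1 and sorbitol 2 to sucrose 2.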

How the data were processed

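Total RNA of 4 leaf samples was hybridised to 1-colour ATH1 arrays. The deposited table gave 1 intensity per probe set and array, made with MAS5 per the submitters' processing notes. Its version and the genome build are not given in the sources used here. In the table the 2% trimmed mean of every array was 100.0, so intensities were not normalised again.

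Intensities under 0.1 were raised to 0.1 and converted to log2, 64 control probe sets were left out, and probe sets at or above the 40th percentile of mean log2 value were tested (an intensity of 18.6). Sucrose was compared with sorbitol in limma 3.58.1 (R 4.3.3; lmFit, eBayes with a trend), with Benjamini-Hochberg adjustment over all probe sets tested. The fit was tested on simulated data. The brightest single-gene probe set stood for a gene, whose name was updated through the TAIR10.1 gene table (13436 of 13513 matched). No positions are printed, since no build is named for the array.

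The genes, lists and tests were chosen with earlier results of these data known. Listed genes are all named where 6 or fewer of a list were measured, and the nearest profiles are the 5 per gene. Alternatives were other filters, a pseudocount of 5.3, quantile normalisation, median centring, no trend, a replicate block, fits without each array and a mean over probe sets. The counts of 2-fold differences in 1 treatment were added after seeing the data.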

Additional observations from a re-analysis of the deposited data

How the results depend on the processing

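In all 12 alternatives to the sucrose comparison run for each gene, 0 of the 4 genes passed the threshold. The lowest limma adjusted p was 0.348 for COR15A, 0.102 for COR15B, 0.231 for COR47 and 0.121 for LTI30. The filters, no trend, the replicate block and the mean over probe sets leave the log2 change itself unaltered, so their values could not turn. Directions turned in 7 of 48 values, all of them in fits without 1 array. Those fits spanned -0.62 to 1.50 for COR15A, -1.64 to 0.85 for COR15B, -1.59 to 1.27 for COR47 and -0.88 to 2.58 for LTI30, and assume that the lone array varies like the other treatment. The replicate differences kept their sign in all 40 values, but many of these could not turn. The filters and the mean over probe sets leave the difference unchanged. Leaving out 1 array gives only the difference within the other treatment, already given above. Each gene had 1 probe set, so the mean over probe sets equals the reported value. Probe sets called higher and lower in sucrose (50 and 126) numbered 1 and 2 with no filter, 21 and 71 with quantile normalisation, 26 and 77 with no trend, and 1130 and 1206 with the replicate block. With the 60th percentile filter 83 were higher, and with median centring 196 were lower. Without 1 array the counts spanned 0 to 403 higher and 0 to 545 lower. With the replicate number as a block, which leaves 1 residual degree of freedom, the adjusted p was 0.348 for COR15A, 0.614 for COR15B, 0.815 for COR47 and 0.121 for LTI30. Among the other cold and dehydration genes the block brought DI21 (blocked adjusted p = 0.00102), STZ (0.0168) and AT1G54410 (0.0295) past the threshold. Across probe sets, arrays with the same number deviated from their group means with a correlation of 0.43, too few pairs (2) to show that the number pairs them. Median centring moved the median replicate difference of all probe sets from -0.11 to 0.03. Depth on arrays is unknown, and the number of arrays limits the precision.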
